A study of Mus musculus with 24 samples.

Results

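Wide H3K27ac regions called in the male or the female list of B6 liver, and in no other list, were described. Peaks of 4 lists were merged wherever they overlapped by at least 1 bp, which gave 117616 union regions on the 19 autosomes. Members were chosen by their calls and their width: a region had to hold a peak of exactly 1 list, that list had to be of B6, and the region had to be at least 600 bp wide. There were 1059 members, each made of a single peak. The B6 male list gave 494 of them (male-called members), 0.42% of all regions, and the B6 female list gave 565 (female-called members), 0.48% of all regions. Nothing is read from these counts or from the calls at the members, since the rule used them.

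The lists come from H3K27ac ChIP-seq of mouse liver in both sexes and 2 inbred strains, C57BL/6J, called B6, and CAST/EiJ, called CAST, which descend from separate subspecies. Their comparison was meant to separate sex differences in regulatory regions that both strains have from those of 1 strain. All mice were 8 weeks old, bought from the same supplier, and carried no allele or treatment named in the labels. Each list pools the 5 livers of 1 strain and sex, and 1 input library per group served as the control, so no value has a spread between animals and no test between conditions was made. Groups were taken from the sample titles, and the labels' separate strain field calls every male B6 and every female CAST. Lists titled as 1 strain shared 64.3% (B6) and 63.7% (CAST) of covered bases, against 60% shared by the male lists and 54.1% shared by the female lists of the 2 strains. The lists held between 79862 and 90228 peaks, with median widths from 578 bp (CAST females) to 680 bp (B6 males); read depth is not in the files used here. Starts of hepatocyte marker genes were covered in every list (11 of 12), whereas starts of macrophage and Kupffer cell markers (1 or 2 of 14) and of neutrophil markers (1 or 2 of 12) mostly were not. Starts of endothelial markers (11 to 13 of 15), cholangiocyte markers (5 or 6 of 10) and stellate cell markers (4 to 7 of 15; 5 in B6 males and 7 in B6 females) were covered in part or mostly, and of the other 6 lists of markers at most 4 starts each were.

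H3K27ac is an acetyl mark on histone H3 that nucleosomes carry at active promoters and enhancers, and an enhancer can act on a gene over a long distance, so the nearest gene is a label and not a known target. Adult mouse liver differs between the sexes mainly through the timing of growth hormone release, which is pulsatile in males and more continuous in females, and which reaches the genome through the transcription factor STAT5. Its effects include male or female bias of many cytochrome P450, sulfotransferase and glucuronosyltransferase genes, and factors such as BCL6 in males and CUX2 in females act on the same pathway.

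To show the reference sequence under the members with the highest scores, 200 bases of mm9 centred on the summit, plus strand, are given for the 3 highest-ranked female-called members, for the highest-ranked member of the only cluster of female-called members (near Gm765) and for the member in Cyp2b13, which was added after its values were seen. Capitals mark matches to the motifs described with the base composition.
1700055N04Rik, chr19:3958905-3959104: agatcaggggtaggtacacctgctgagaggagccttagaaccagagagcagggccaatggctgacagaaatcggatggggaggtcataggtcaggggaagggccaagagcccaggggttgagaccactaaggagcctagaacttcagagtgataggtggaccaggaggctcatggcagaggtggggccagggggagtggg
Kif21a, chr15:90934146-90934345: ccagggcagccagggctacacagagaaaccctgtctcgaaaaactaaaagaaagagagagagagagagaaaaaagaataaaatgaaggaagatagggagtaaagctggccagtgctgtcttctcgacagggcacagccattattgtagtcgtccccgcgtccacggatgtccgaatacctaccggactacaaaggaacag
Fam110b, chr4:5626163-5626362: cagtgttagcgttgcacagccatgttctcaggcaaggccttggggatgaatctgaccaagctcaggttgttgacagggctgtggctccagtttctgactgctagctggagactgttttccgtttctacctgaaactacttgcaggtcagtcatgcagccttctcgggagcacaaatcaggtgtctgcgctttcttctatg
Cyp2b13, chr7:26867420-26867619: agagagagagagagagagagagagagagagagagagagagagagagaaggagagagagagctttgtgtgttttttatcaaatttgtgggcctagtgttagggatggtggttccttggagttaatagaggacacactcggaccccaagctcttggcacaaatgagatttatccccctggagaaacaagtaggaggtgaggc
Gm765, chr6:98341181-98341380: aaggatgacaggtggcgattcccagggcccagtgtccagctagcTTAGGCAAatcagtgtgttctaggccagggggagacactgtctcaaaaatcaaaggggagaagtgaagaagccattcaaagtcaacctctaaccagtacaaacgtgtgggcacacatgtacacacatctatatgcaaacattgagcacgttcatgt
The same windows are given for the 3 highest-ranked male-called members, for the highest-ranked member of the cluster at Rasal2, and for the highest-ranked male-called member near a gene of the list of male-biased liver genes (Nudt7), again added after its values were seen. Of the 3 male windows with the highest ranks, none held a motif match, nor did any of the 3 female ones.
Gm1330, first peak, chr2:148820281-148820480: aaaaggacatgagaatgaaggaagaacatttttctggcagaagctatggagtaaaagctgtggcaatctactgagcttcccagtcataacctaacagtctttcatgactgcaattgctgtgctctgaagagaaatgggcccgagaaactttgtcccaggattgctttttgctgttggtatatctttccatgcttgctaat
Gm1330, second peak, chr2:148821446-148821645: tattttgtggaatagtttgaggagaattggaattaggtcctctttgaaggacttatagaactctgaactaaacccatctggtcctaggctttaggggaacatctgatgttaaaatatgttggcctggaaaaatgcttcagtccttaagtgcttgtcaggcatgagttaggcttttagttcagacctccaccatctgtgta
Tusc3, chr8:40002095-40002294: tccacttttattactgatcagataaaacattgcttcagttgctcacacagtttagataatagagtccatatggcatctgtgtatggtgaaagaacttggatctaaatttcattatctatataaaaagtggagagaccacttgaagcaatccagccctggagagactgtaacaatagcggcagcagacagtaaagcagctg
Rasal2, chr1:159128811-159129010: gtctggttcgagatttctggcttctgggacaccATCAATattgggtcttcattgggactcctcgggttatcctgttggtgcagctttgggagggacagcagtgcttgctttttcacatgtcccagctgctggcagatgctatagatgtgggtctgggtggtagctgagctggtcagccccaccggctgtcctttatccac
Nudt7, chr8:116633431-116633630: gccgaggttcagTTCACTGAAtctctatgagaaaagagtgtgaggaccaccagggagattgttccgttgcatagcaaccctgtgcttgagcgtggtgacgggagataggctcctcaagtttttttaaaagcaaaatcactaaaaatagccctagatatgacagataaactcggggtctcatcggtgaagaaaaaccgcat

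Members were low to middling peaks of their own lists. A peak's score percentile is its place among all peaks of its list, with the weakest near 0 and the strongest at 100. The median percentile was 27.95 for male-called members (range 0.775 to 77.3) and 29.7 for female-called members (1.18 to 87.2), against 77.3 for the 43371 wide regions called in all 4 lists. Median fold enrichment over background, as deposited, was 2.31 (1.46 to 4.59) and 2.28 (1.42 to 4.92). Most members were only slightly wider than the limit: the median width was 715 bp for male-called members, with the widest at 2299 bp, and 707 bp for female-called members, with the widest at 1798 bp. Among male-called members 13.2% and among female-called members 12.6% stood in the upper 50% of their list, against 7.36% and 10.3% of the wide regions of a single CAST list (male and female), whose median percentiles were 25.2 and 26.2. The shares were 1.6% and 2.53% in the narrower regions of the B6 lists, which differ from members in the width that the rule used. Just below the width limit (590 to 599 bp) 40 male-only regions had a median fold of 2.07 and 41 female-only regions 2.13; just above it (600 to 609 bp) 28 and 31 regions had medians of 2.23 and 2.18.

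**Figure D1:**
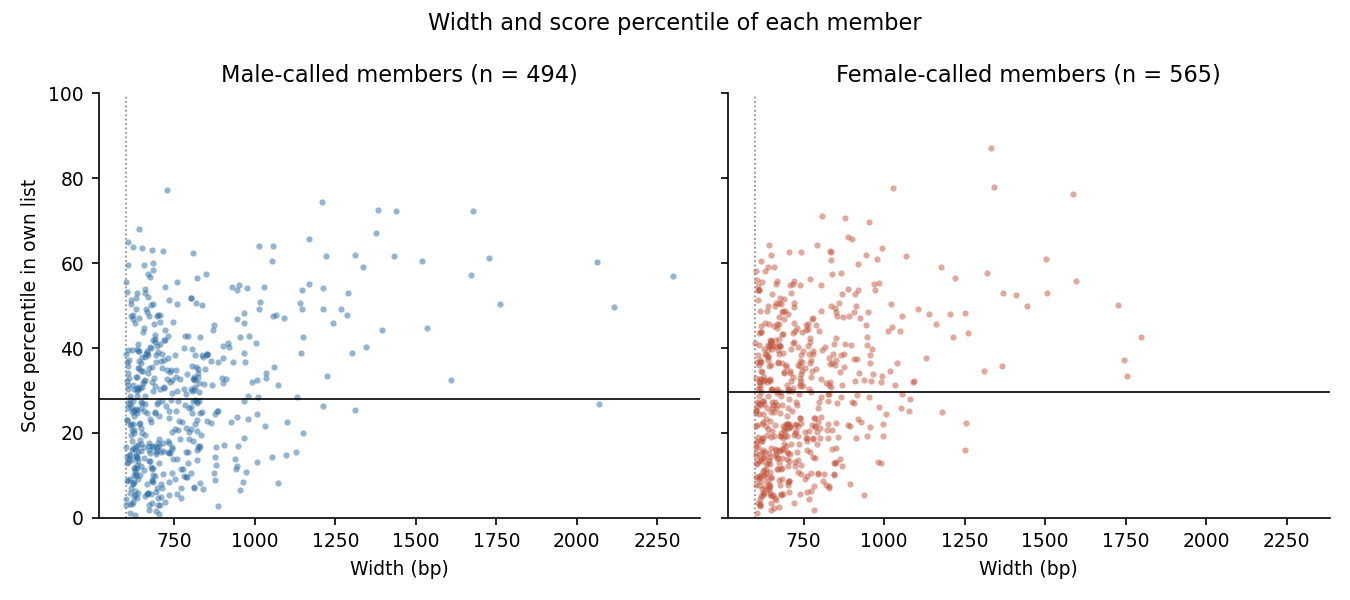
Width in bp (horizontal axis) and score percentile within the own list (vertical axis) of each male-called (left, n = 494) and female-called (right, n = 565) member; 1 point is 1 member, the dotted line is the limit of 600 bp and the horizontal line the median percentile (27.95 and 29.7). Points crowd at the narrow, low side in both panels, and in both the widest members stop short of the highest percentiles.

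Distances to the nearest peak of another list varied, with medians of 3.2 kb for male-called and 3.72 kb for female-called members, against 1.25 kb and 1.59 kb for the narrower regions of the same lists. Of male-called members, 179 (36.2%; 95% Wilson interval 32.1 to 40.6) had a peak of another list within 1 kb, and of female-called members 160 (28.3%; 24.8 to 32.2), fewer than of the narrower regions (46.4% and 41.9%). The nearest peak of the opposite B6 list lay within 1 kb of 125 male-called (25.3%) and 124 female-called members (21.9%). A CAST male peak lay within 1 kb of 24.7% of male-called members (21.1 to 28.7) and 16.3% of female-called members (13.5 to 19.6). A CAST female peak lay within 1 kb of 18.2% (15.1 to 21.9) and 13.5% (10.9 to 16.5). The B6 lists skip 599 (male) and 579 (female) peak numbers, where the authors may have removed peaks, and 6 male-called and 2 female-called members lay where the other B6 list skips a number; the member at the start of Cass4, an adaptor protein gene, was among them. These intervals, here and throughout, cover counting error only.

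Members lay away from promoters. Only 30 male-called members (6.07%; 4.29 to 8.54) and 49 female-called members (8.67%; 6.62 to 11.3) lay within 2.5 kb of the start of a protein-coding transcript, against 31.9% of wide regions called in all lists. These shares were close to those of the narrower regions of the same lists (7.58% and 8.05%) and of wide regions of a single CAST list (6.48% male, 5.72% female). Introns of coding genes held 43.7% of male-called members (39.4 to 48.1) and 36.8% of female-called members (32.9 to 40.9), fewer than of the narrower regions of each list (51.6% and 49.5%). Places between genes held 37.4% (33.3 to 41.8) and 43.9% (39.9 to 48), more than of the narrower regions (31.8% and 34.3%). Over all regions, introns held 39.7% and places between genes 32%. In wide regions of a single CAST list (male and female), introns held 46.8% and 45.8%, and places between genes 33.8% and 37.3%. The median distance to the nearest coding start was 29.8 kb for male-called and 25.9 kb for female-called members, 24.1 kb and 23.6 kb for the narrower regions, and 11.4 kb for wide regions in all lists.

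**Figure D2:**
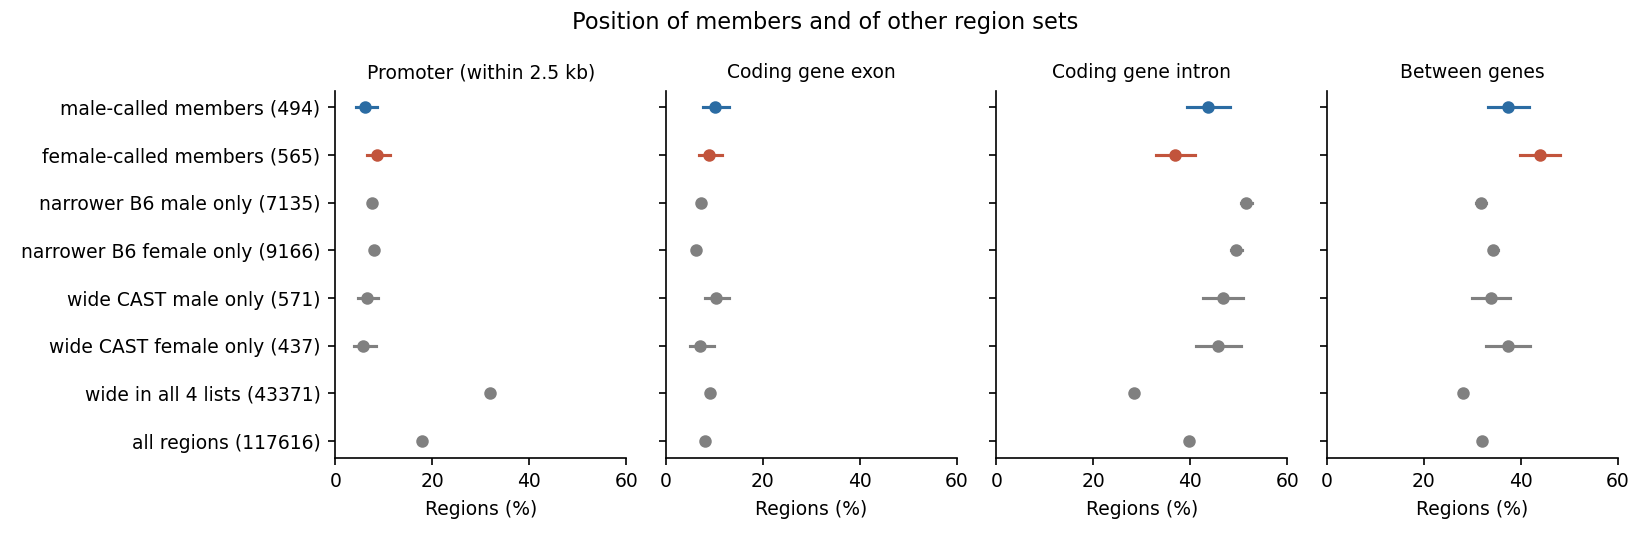
Share of regions (horizontal axes, %) within 2.5 kb of a coding start, in exons or introns of coding genes, and between genes, for members (coloured) and for other sets (grey), with the number of regions in parentheses; points are shares and lines 95% Wilson intervals. Promoter shares of all single-list sets lie under 10%, and between genes the female-called members have the highest share of all sets, 43.9%.

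Few members covered a gene start. They were 5 of the 494 male-called members (1.01%; 0.433 to 2.35) and 11 of the 565 female-called members (1.95%; 1.09 to 3.45), against 23.5% of wide regions in all lists. The other sets called in a single list were also low. The narrower regions of the same lists had 0.673% (male) and 0.807% (female), and wide regions of a single CAST list 1.23% and 1.6%. The female-called starts with the highest percentiles were those of Evc2, a ciliary protein of Hedgehog signalling (3.4-fold, percentile 59.1), Ankrd22 (3.01-fold, 54.6), Hao2, a peroxisomal hydroxyacid oxidase (2.88-fold, 51.5), and Oas2, an interferon-induced oligoadenylate synthetase (2.79-fold, 44.1). At Evc2 the B6 male list had a peak 1.07 kb away and the nearest peak of either CAST list was 312 kb away. At Oas2 the nearest peak of another list was 49.6 kb away, and the member, at 5:121199196-121200208, was the only region of any list nearest to that gene. The next were Gm609, Mab21l3, Art3 and Kcng3, at folds of 2.02 to 2.49. Male-called starts were those of Cass4 (2.94-fold, percentile 47.7), Ubd, a ubiquitin-like modifier (2.38-fold, 25.1), Ccdc147 (2.22-fold, 16.9), Arhgap27 (2.07-fold, 10.6) and Macf1, a cytoskeletal linker (1.93-fold, 5.56). At Arhgap27 the CAST male list had a peak 0.043 kb away, so there the call and its absence in CAST males touch.

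The strongest female-called member lay 6.64 kb from the start of 1700055N04Rik, at 19:3957932-3959262 (4.73-fold, percentile 87.2), and the nearest peak of another list was 7.25 kb away, in B6 males. The next lay between genes near Kif21a, a kinesin motor (15:90933688-90935029, 4.92-fold, 78), and in an intron of Fam110b (4:5625558-5626584, 4.72-fold, 77.7). The fourth lay in an intron of Cyp2b13, a cytochrome P450 gene, at 7:26867315-26868900 (3.86-fold, 76.4). The nearest peak was 179 kb away in B6 males, 180 kb away in CAST males and 14.7 kb away in CAST females. The others above percentile 70 lay in a coding exon of Sybu, with Ebag9 as the nearest start (3.52-fold, 71.1), and in an intron of B230120H23Rik (3.5-fold, 70.7).

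Among male-called members the highest percentile was that of a region in an intron of Gm1330, at 2:148820182-148820908 (4.58-fold, 77.3), and a neighbour in the same gene, at 2:148821185-148822566, was also among the first 3 (3.98-fold, 72.5). Between them in rank stood a member 65.9 kb from Tusc3, a gene of protein N-glycosylation, at 8:40001754-40002961 (4.59-fold, 74.4); the CAST male list had a peak 4.71 kb away, and the female lists had their nearest peaks 65.5 kb (B6) and 65.6 kb (CAST) away. Next came members far from any coding start: 88.4 kb from Cast, the calpastatin gene (13:75034399-75036076, 4.39-fold, 72.4), and 463 kb from Jag1, a Notch ligand (2:137405089-137406527, 4.1-fold, 72.4). The sixth lay in an intron of Ltbp1, a carrier of latent TGF-beta, with Rasgrp3 as the nearest start (17:75722377-75723017, 3.77-fold, 68). At the low end, 2 male-called members, near Cyb5r3 (1.46-fold) and Slc2a1 (1.49-fold), and 1 female-called member, in Mat1a (1.42-fold), had folds under 1.5.

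Few members lay in clusters of their own list, and no reference share is set beside these values. A cluster was a run of 3 or more members of 1 list with gaps of at most 50 kb. Male-called members formed 3 clusters with 10 members (2.02%; 1.1 to 3.69) and female-called members 1 cluster with 3 members (0.531%; 0.181 to 1.55). The largest was at Rasal2, a Ras GTPase-activating protein gene: 4 members between 1:159104289 and 159130193, at folds of 3, 2.43, 3.21 and 2.37 along the chromosome. When peaks at most 500 bp apart were joined first, the Rasal2 cluster again held 4 regions but not the same ones: 2 of its members joined into 1 region of 2212 bp, and a region of 914 bp that held no member was added. The clusters at Gm1330, Nlgn1 and Gm765 were lost, and 3 regions near Nrp2, a neuropilin gene, formed a cluster, 2 of them members and 1 made of narrower peaks. In the 25.9 kb at Rasal2 the B6 male list had 7 peaks covering 4.52 kb, the B6 female list 1 peak of 0.254 kb and the CAST lists none.

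The cluster at Gm1330 spanned 2:148792322-148822566 and had the highest folds, 3.46, 4.58 and 3.98. No other list had a peak within it, and the nearest B6 female peak was at least 64 kb from each member. Beyond its right end, within 30 kb, the CAST male list had 3 peaks and the CAST female list 1. The cluster in an intron of Nlgn1, a synaptic adhesion gene, spanned 3:25416662-25456255 with folds of 2.21, 2 and 2.48. Its 5 peaks were all of the B6 male list, and those were the only peaks of any list nearest to Nlgn1. The female-called cluster lay between genes near Gm765, at 6:98333329-98384926, with folds of 2.44, 2.63 and 2.29. There the B6 male list was not empty: its calls lay in 2 regions and covered 2.6 kb, against 6 regions and 5.99 kb in B6 females.

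**Figure D3:**
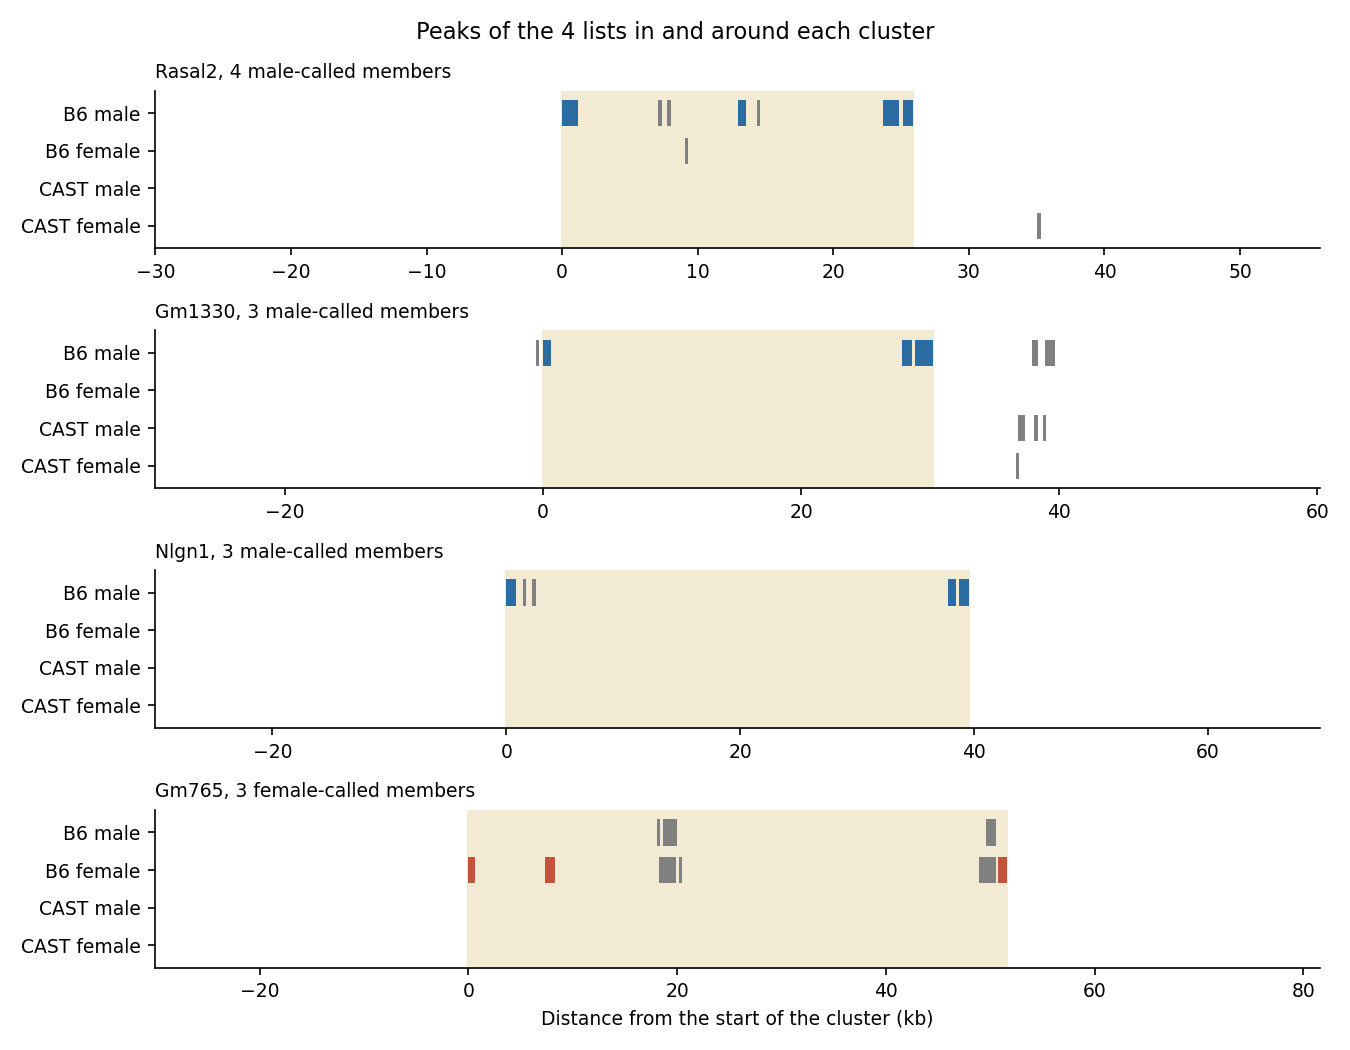
Peaks of the 4 lists (rows) in each cluster and 30 kb to either side; the horizontal axis is the distance in kb from the start of the cluster, shading marks the cluster, colour marks members and grey marks peaks that are not members, with very narrow peaks drawn at 0.25 kb. The CAST rows are empty within all 4 clusters, and the B6 row of the other sex is empty in 2 of them.

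All 4 clusters lay in long stretches without a CAST peak: 108 kb at Rasal2, 101 kb at Gm1330, 1237 kb at Nlgn1 and 398 kb at Gm765. The stretch between the flanking CAST peaks had a median of 30.4 kb around male-called and 28.1 kb around female-called members, against 15.2 kb and 16.2 kb around the narrower regions. It was over 100 kb for 26.9% of male-called members (23.2 to 31) and 23.4% of female-called members (20.1 to 27), against 11% and 11.8% of the narrower regions. Each stretch contains the region itself, and the rule asked for a longer piece without a CAST peak of members than of narrower regions (median widths of 715 and 707 bp against 298 and 288 bp), so these values are a description and part of the difference was fixed by the rule.

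Smaller groups were more frequent. Runs of 2 or more members of the same list, a size chosen after the clusters were seen, held 50 male-called members (10.1%) in 23 runs and 49 female-called members (8.67%) in 24 runs. Among 75 pairs of neighbouring members at most 50 kb apart, 27 were both male-called, 25 both female-called and 23 mixed, so 69.3% (58.2 to 78.6) had the same sex. At limits of 20 kb and 100 kb the shares were 71.4% (56.4 to 82.8) and 63.2% (54.2 to 71.4). The sum of the squared shares of the lists among members, given only as a reference, is 50.2%. Among male pairs were those near Amy2a5, an amylase gene (2.32- and 3.62-fold), Stx16, a syntaxin gene (3.36- and 2.07-fold), and Anxa10, an annexin gene (3.19- and 1.89-fold). Among female pairs were those of Evc and Evc2, which are divergent neighbours (3.37- and 3.4-fold), and of Hsd3b1, a steroid dehydrogenase gene, and Hao2 (2.18- and 2.88-fold).

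Of 16233 coding genes that were nearest to any region, 2.8% were nearest to a male-called and 3.25% to a female-called member. The 494 male-called members had 454 nearest genes and the 565 female-called members 527, and 40 genes had members of both lists, 8.81% of the former and 7.59% of the latter. Both shares were above those over all genes, which do not allow for genes with many regions having more chances to be nearest to a member; this was not tested. Most genes had 1 member: 421 of the male and 491 of the female. No gene was nearest to 2 or more members of each list. The 33 genes with 2 or more male-called members were led by Rasal2 (4), then Gm1330, Gm10110, Nlgn1, Etv6 and Mtpn (3 each). The 36 genes with 2 or more female-called members were led by Gm765 and Arhgap26 (3 each).

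Around the 12 genes with most male-called members the calls outside the members varied widely, and the lengths that follow leave all members out. At Anxa10 no other region of any list remained, and at Nlgn1 only 0.547 kb in B6 males. Near Gm1330 the B6 male list covered 1.52 kb, the B6 female list 0 kb, the CAST male list 1.1 kb and the CAST female list 0.252 kb. Near Gm10110 the B6 male list covered 6.43 kb, the B6 female list 3.07 kb, the CAST male list 0.837 kb and the CAST female list 0 kb. Its 3 members lay 98.1 to 245 kb from the gene, at folds of 3.56, 3.05 and 3.15. Oma1, a protease of the mitochondrial inner membrane, had 10.9 kb in B6 males and 4.16 kb in B6 females; in CAST it had 7.93 kb in males and 5.11 kb in females. Etv6, an ETS family repressor, was rich in all lists, with 40.5 and 30.6 kb in B6 males and females and 40.8 and 35 kb in CAST. Fgl1, a fibrinogen-like protein secreted by hepatocytes, went the other way in CAST: 7.69 kb in B6 males against 6.77 kb in B6 females, but 5.43 kb in CAST males against 8.03 kb in CAST females. The members near Grik2, a kainate receptor subunit gene, lay 1936 and 1922 kb from its start, and the widest member of all, 2299 bp, was one of them.

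Around the 12 genes with most female-called members the lengths also varied, again with members left out. Near Gm765 the CAST lists covered 0.284 kb in males and 0 kb in females, against 4.44 and 5.64 kb in B6. Arhgap26 had 47.8 kb in B6 males and 46.6 kb in B6 females, and Tns1, a focal adhesion protein gene, 40.8 and 39.7 kb. At Arid1b, a subunit of a chromatin remodelling complex, the B6 male list covered more than the female, 63.4 against 57.3 kb, although 2 of its members were female-called and 1 male-called. Insig1, which holds back the activation of sterol regulatory factors, had members on both sides of the gene, at folds of 2.21 and 2.16, with 15.4 kb in B6 females and 15.2 kb in B6 males. Nxph1 and Kcnq5, both known from neurons, had little signal elsewhere: 6.38 kb in B6 females against 5.12 kb in B6 males, and 1.59 kb against 1.9 kb. Inhba, which encodes an activin subunit, had members 223 and 290 kb from its start. Of these 12 genes, Hao2 and Arhgap26 alone had more female-only than male-only CAST regions (2 against 0, and 13 against 12).

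**Figure D4:**
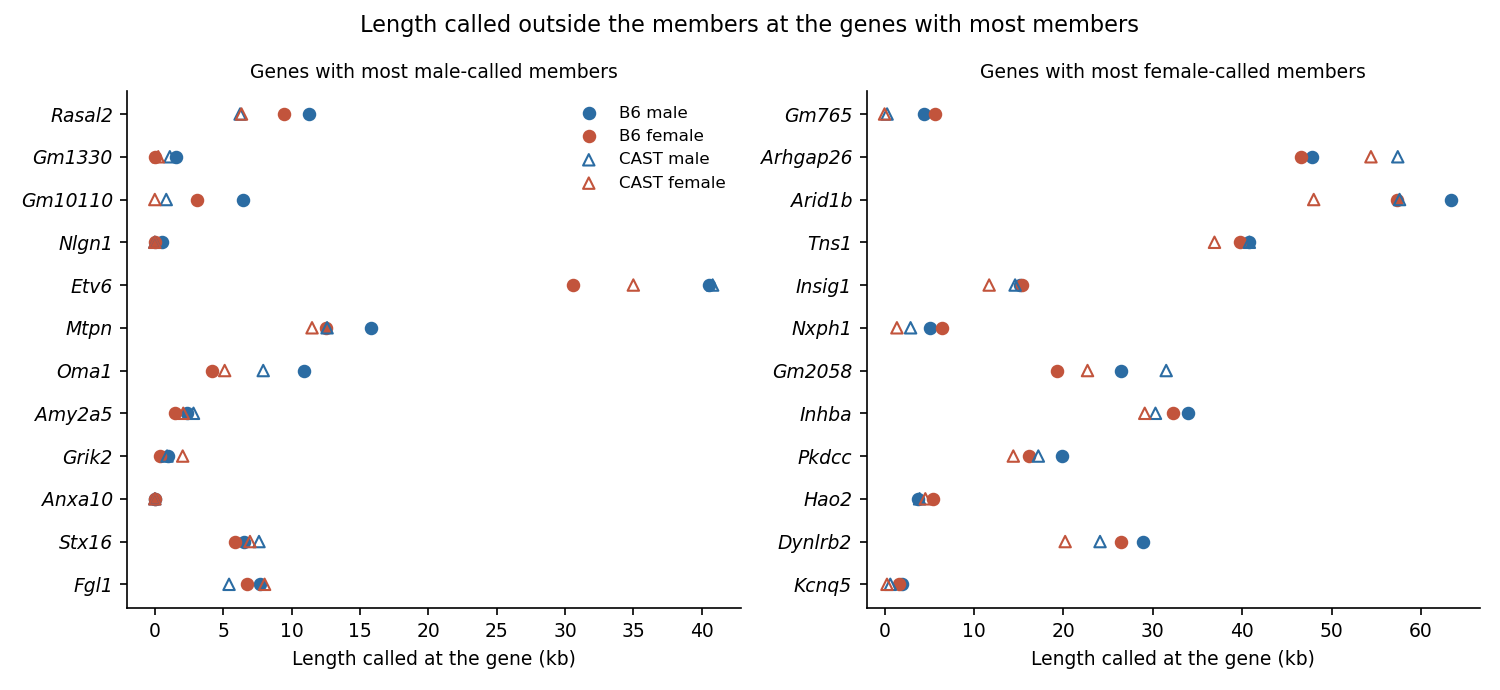
Total length called in each list (horizontal axis, kb) over all regions nearest to each of the 12 genes with most male-called (left) and female-called (right) members, with the members left out; filled circles are B6, open triangles CAST, blue male and red female. At the left the B6 male circle is ahead of the B6 female one at every gene but Anxa10, where all values are 0, and at the right the B6 female circle is ahead at Gm765, Insig1, Nxph1 and Hao2 and behind at the others. The genes were picked by calls of these same B6 lists. The B6 male list was the wider in 55.9% of all regions called in both B6 lists.

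Genes known for sex bias in liver were few among the nearest genes. Genes of a list of 29 male-biased liver genes were nearest to 5 male-called members (1.01%) and 1 female-called member (0.177%), against 0.364% of all regions. Genes of a list of 36 female-biased genes were nearest to 3 male-called (0.607%) and 8 female-called members (1.42%), against 0.413% of all regions. In CAST, regions called in 1 sex only leaned the same way at these lists: 127 male and 18 female at the male-biased list, 33 male and 154 female at the female-biased list. Both lists were chosen with results of these data known, and counts this small carry wide errors.

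Values at the named genes of these lists leave the members out too. Of the female-biased genes, Cyp2b13 was covered only in females: 7 regions in B6 females, 4 in CAST females and 0 in both male lists, with 3.67 kb and 3.16 kb covered. The Cyp2b genes are similar copies among which uniquely mapped reads can be lost, so these values are uncertain. Cux2, a female-specific transcription factor of mouse liver, held a member in an intron 3.4 kb from its start (5:122367350-122367957, 3.15-fold, percentile 53.8). It had 16 other regions in B6 females against 5 in B6 males, and 20 in CAST females against 8 in CAST males. Trim24, a transcriptional cofactor, had 23.2 kb in B6 females against 14.4 kb in B6 males, and 25 against 13.2 kb in CAST, with a member of 1.9-fold. At Hao2, besides the member over its start, a second lay 82.3 kb away (2.64-fold), and its 7 other regions were all called in B6 females and 4 of them in B6 males. Abcd2, a peroxisomal transporter gene, and Bmper, which encodes a BMP-binding protein, are on the female-biased list and had only a male-called member each (2.58- and 2.44-fold). The other regions near Bmper covered more in females, 24.3 against 13.9 kb in B6 and 29.8 against 17.5 kb in CAST, and those near Abcd2 slightly more in males, 9.41 against 8.68 kb and 9.38 against 8.06 kb. Near Atp6v0d2, a proton pump subunit gene, 1 member of each sex was found.

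Of the male-biased genes, Ugt2b1 and Ugt2b38, which encode glucuronosyltransferases, had male-called members of 1.96- and 2.17-fold. At Ugt2b1 the other regions covered 7.91 kb in B6 males and 5.05 kb in B6 females, and 7.48 and 5.71 kb in CAST. With Ugt2b5 (2.63-fold), the Ugt family had 3 male-called and 0 female-called members; 0.122% of all regions were nearest to these genes, against 0.607% of male-called members, and these genes too have similar copies. Susd4, a complement regulator, had 1 wide male-called member (1345 bp, 2.5-fold) and 11 kb against 6.22 kb in CAST males and females. Nudt7, a peroxisomal diphosphatase, had a member of each sex on either side: the male-called one at 8:116632687-116633698 (2.02-fold, percentile 64.1) and the female-called one at 8:116683422-116684282 (2.89-fold, 50.7), while the other regions covered more in males in both strains (18.5 against 12.2 kb in B6, 18.3 against 11.8 kb in CAST).

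Other liver pathways had few members on either side, too few to set their shares apart from the share of all regions nearest to the same genes, given beside the counts. Growth hormone signalling genes had 2 male-called (0.405%) and 3 female-called members (0.531%), against 0.374% of all regions, the latter including one over an exon of Stat5a, which encodes a STAT5 protein (2.07-fold). Hepatocyte transcription factors had the same counts, against 0.466% of all regions, with Onecut1, which encodes HNF6, on both sides (1.99-fold in males, 1.83-fold in females). Glucose metabolism genes had 1 and 3, against 0.309%, with the insulin receptor gene Insr on both sides (2.08- and 1.82-fold). Cholesterol genes had 1 and 2, against 0.188%, the latter the pair at Insig1. Circadian clock genes had 1 male-called member, near Arntl (2.59-fold), and 2 female-called ones, both in introns of Rora (2.2- and 2.01-fold), against 0.247%. Lipid synthesis genes had 1 of each (0.292% of all regions), bile acid genes 1 male-called (0.252%), the cytochrome P450 families 3 male-called and 1 female-called (0.355%), and sulfotransferase genes 1 female-called (0.0697%). Collagen genes had 1 male-called and 2 female-called members (0.228%), and olfactory receptor genes 1 and 3 (0.114%). Fatty acid oxidation and acute phase genes had none, and neither did the Gst, Slco, Serpina, Mup, H2 and Vmn families; each of these lists held at most 0.172% of all regions, so counts of 0 are near background. The stress and immediate early genes had 4 male-called members (0.81%) and 1 female-called member (0.177%), against 0.331% of all regions; the male-called ones included those near Dusp1, a phosphatase induced by stress (2.51-fold), and Klf4 (2.12-fold). Interferon genes had 0 male-called and 2 female-called members, near Oas2 and Igtp (0.354%, against 0.0859% of all regions). Solute carrier genes had 6 male-called (1.21%) and 14 female-called members (2.48%), against 1.89% of all regions. Among the lists of markers of other cell types, no list had more than 2 members of either sex: cholangiocyte markers had 2 male-called (near Sox9 and Spp1; 0.405%, against 0.074% of all regions), B cell markers 1 male-called (near Ebf1; 0.202%, against 0.0451%), endothelial markers 1 of each (0.202% and 0.177%, against 0.166%) and adipocyte markers 1 female-called (0.177%, against 0.051%). Markers of T and NK cells, macrophages, neutrophils, stellate cells, acinar cells, muscle and erythroid cells had none, and each of these lists held at most 0.0595% of all regions, so that a count of 0 shows little.

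The rule left the calls around the members unused, and these were compared between regions within 20 kb of a male-called member only and of a female-called member only. Regions called in exactly 1 CAST list come from other animals than the members. Near male-called members 409 of 608 (67.3%; 63.4 to 70.9) were of the CAST male list, and near female-called members 388 of 664 (58.4%; 54.6 to 62.1). Among all such regions 60.7% were male, so the shift was upward near the former and within the interval near the latter. The share near male-called members was the higher on 15 of the 19 autosomes and the lower on 3. That the strains share part of their sex differences in these lists was known when the members were chosen, so this lean is not independent support for it.

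Where CAST sex-only regions had no B6 call at all, the lean was small: 57.4% (52.1 to 62.6) against 53% (48 to 57.9), with 54.5% over all of them, and the share was higher near male-called members on 10 of 19 autosomes. Where they were called in 1 B6 list, it was 77.9% (70.3 to 83.9) against 58.3% (50 to 66.1), with 65.4% over all of them. Where they were called in both B6 lists, it was 82.4% (74.8 to 88.1) against 73.9% (66 to 80.5), with 77% over all of them, and the share was higher near male-called members on 10 of 19 autosomes and lower on 7. The intervals overlap in the first and the last of these sets, and the differences between the gaps were not tested.

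Regions called in both CAST lists offered a second, graded measure, the list in which the called length was larger. The CAST male list was the wider in 614 of 929 regions near male-called members (66.1%; 63 to 69.1) and in 632 of 1121 near female-called members (56.4%; 53.5 to 59.3), with 60.1% among all such regions. The share was higher near male-called members on 18 of the 19 autosomes. In regions called in both B6 lists the male list was the wider in 549 of 968 (56.7%; 53.6 to 59.8) and 616 of 1193 (51.6%; 48.8 to 54.5), with 55.9% among all such regions, and the share was higher near male-called members on 14 autosomes. By score percentile in place of width, the shares higher in males were 51.8% and 43.1% in B6, with 48.5% among all such regions, and 63.9% and 58.9% in CAST, with 59.9% among all. The intervals of the CAST pair overlap, and there the share was higher near male-called members on 12 autosomes and lower on 7.

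In the CAST lists the gap between the sexes of the members narrowed with distance. Each region was assigned to its nearest member. Within 5 kb, 69.2% (62.2 to 75.4) of CAST sex-only regions were male around male-called members and 54.1% (46.9 to 61.1) around female-called members. At 5 to 20 kb the shares were 66.1% (61.5 to 70.4) and 59.8% (55.4 to 64.1), with intervals that overlap, at 20 to 50 kb 64.4% and 59.4%, and at 100 to 200 kb 60.5% and 60.6%. For regions of both CAST lists the shares went from 68.7% and 57.8% within 5 kb to 60.9% and 59.9% at 100 to 200 kb. Regions of both B6 lists broke this pattern next to the members: within 5 kb the male list was the wider in 50.4% (44.2 to 56.6) around male-called members and 55.1% (49.5 to 60.6) around female-called members, and at 5 to 20 kb in 58.5% (54.9 to 62) and 50.5% (47.2 to 53.8).

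**Figure D5:**
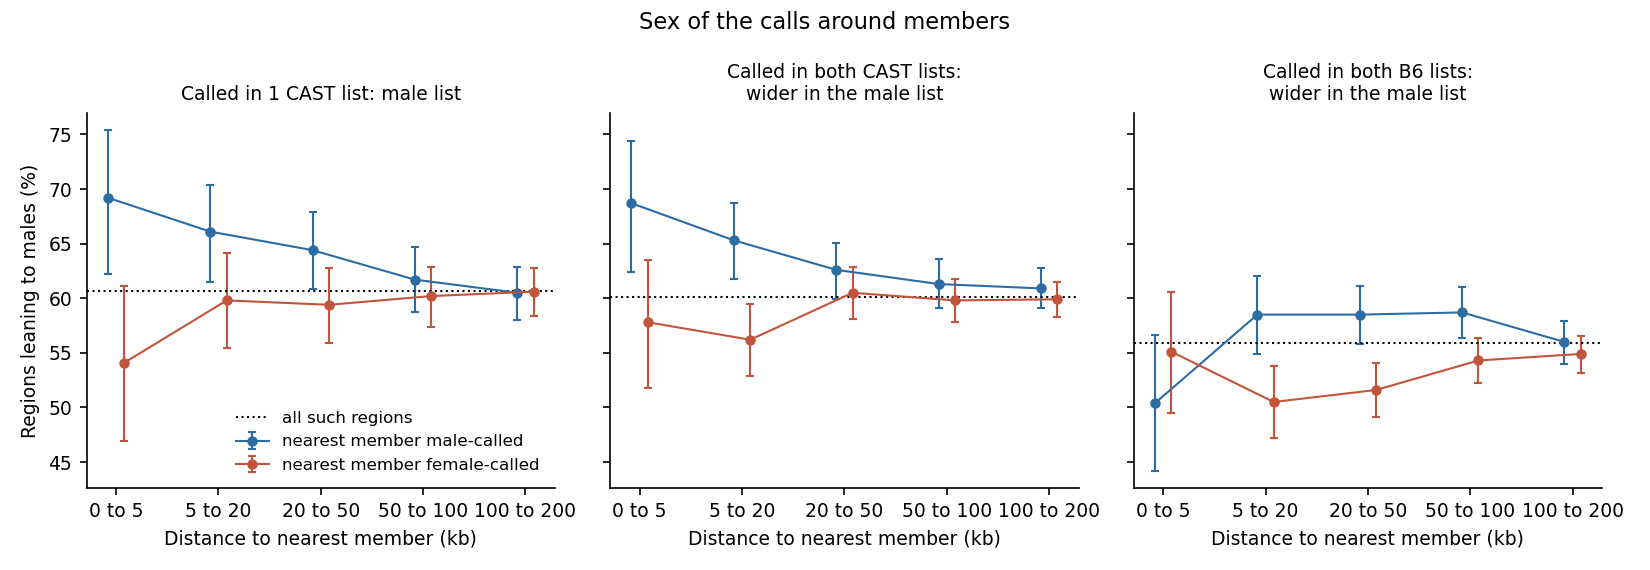
Share of regions leaning to males (vertical axis, %, not starting at 0) by distance to the nearest member (horizontal axis, kb), for regions called in 1 CAST list (left), in both CAST lists (middle) and in both B6 lists (right); blue marks a male-called and red a female-called nearest member, bars are 95% Wilson intervals and the dotted line is the share among all such regions. The bars of the colours are apart within 5 kb in the left panel, where they overlap at 5 to 20 kb, and overlap slightly within 5 kb and are apart at 5 to 20 kb in the middle panel; the points nearly meet by 100 to 200 kb, and they cross within 5 kb in the B6 panel.

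Members were set beside the narrower regions of the same lists. For CAST sex-only regions the gap between the male and female side was 8.84 percentage points around members (67.3% and 58.4%) and 6.36 around narrower regions (65.5% and 59.2%). For regions of both CAST lists it was 9.71 points around members and 0.097 around narrower regions (60.3% and 60.2%). For regions of both B6 lists it was 5.08 points around members and 0.777 around narrower ones (56.4% and 55.6%). Among other regions called in 1 B6 list, 60.7% (56.8 to 64.5) of those near male-called members were in B6 males. Near female-called members 39.6% (35.9 to 43.4) were, a gap of 21.1 points, and over all such regions 50.3%. Around narrower regions the gap was 4.71 points (59.7% and 55%), but there the narrower regions themselves were left out of the counts. These gaps thus rest on different sets of regions and cannot be compared directly. All these regions come from the same lists as the members.

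At the level of genes the lean did not follow the sex of the members on the female side. Of the 33 genes with 2 or more male-called members, 23 had more male-only than female-only CAST regions, 4 had more female-only and 6 had equal numbers. Of the 36 genes with 2 or more female-called members, 7 had more female-only, 23 more male-only and 6 equal numbers. Among all 10198 genes with a CAST sex-only region, 5866 had more male-only, 2937 more female-only and 1395 equal numbers. In both groups, as among all genes, more genes leaned to male-only than to female-only CAST regions. Among genes with 2 or more female-called members, the share with more female-only CAST regions was not above that among all genes.

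Base composition was compared over 300 bases centred on the summit. The median GC content was 43.2% in male-called members (quartiles 39.3 and 48) and 46.7% in female-called members (42.3 and 50.7). In the narrower regions it was 45% (male) and 46.3% (female), in wide regions of a single CAST list 47.7% (male) and 45.3% (female), and in wide regions of all lists 50.7%. Male-called members thus had the lowest median of these sets, and the order of the sexes was the opposite in CAST.

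Short motifs were searched on both strands in the same windows, with matches of different motifs allowed to overlap; a match describes letters and not a bound site. The HNF6 motif ATTGAT, also bound by CUX2, was found in 13% of male-called (10.3 to 16.2) and 11.5% of female-called members (9.13 to 14.4), against 8.12% of all regions and 10.6% and 8.91% of the narrower ones. The STAT5 palindrome TTCNNNGAA was found in 11.3% (8.83 to 14.4) and 11% (8.65 to 13.8), against 8.96% of all regions and 10.1% and 9.27% of the narrower ones. The C/EBP motif TTGCNNAA was found in 14.6% (11.7 to 18) and 13.6% (11 to 16.7), against 11.4% of all regions and 12.7% of the narrower ones of each list. In wide regions of a single CAST list (male and female) the HNF6 motif was found in 10.3% and 10.8%. There the STAT5 palindrome was found in 7.88% and 8.47%, and the C/EBP motif in 13.5% and 10.5%. The shares were not adjusted for base composition. The forkhead motif TGTTTAC was found in 4.86% and 5.13%, against 4.44%, the HNF4A motif CAAAGTCCA in 1.21% and 0.708%, against 0.559%, and the PU.1 motif GAGGAAGT of blood cells in 1.42% and 2.12%, against 2.2%. For none of these motifs were the intervals of male-called and female-called members apart. Of the windows printed above, those at Rasal2, Nudt7 and Gm765 hold 1 match each, to the HNF6, STAT5 and C/EBP motifs in that order.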

How the data were processed

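H3K27ac ChIP-seq of 20 livers, 5 for each strain and sex, with 1 input per group, was analysed from 4 peak lists. The authors pooled the reads of a group, aligned them with Bowtie2 (CAST reads to a CAST genome, with coordinates converted to mm9), called peaks with MACS2 against input, and deposited for each peak a score, a fold enrichment (a ratio), the −log10 of its p- and q-values and a summit position. Here peaks were merged into union regions, and distances to GENCODE vM1 coding starts, clusters and neighbouring regions were counted (Python 3.11.15, pandas 2.3.3, pysam 0.24.0; functions tested on simulated peaks). Shares carry 95% Wilson intervals. Named genes: per sex the 12 with most members, the largest clusters, the 6 highest percentiles, up to 8 covered starts (fold of at least 1.5), and listed genes as counts with examples. Members and lists were chosen with earlier results of these data known.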

Additional observations from a re-analysis of the deposited data

Results flagged for a closer look

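Members were restricted to autosomes. On the sex chromosomes the same rule gave regions outside every comparison above: 20 wide regions of the B6 female list alone on X, against 2 of the B6 male list, and 17 of the B6 male list alone on Y. They are given as values only.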

How the results depend on the processing

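Of 98 alternative values, 76 stayed near the main one (a count within 1.5 times, a share within its interval). The number of male-called and female-called members moved to 315 and 345 with a −log10 q-value of at least 5, to 171 and 164 at a width of 800 bp or more, where alone the female-called were the fewer, and to 961 and 1106 at 500 bp. The share outside promoters moved to 98.2% (male) and 95% (female) with a promoter limit of 1 kb, to 89.7% and 84.6% with starts of all transcripts, and to 95.1% (female) at 800 bp. The share in clusters moved to 0.81% (male) and 0% (female) with gaps of 20 kb, to 0% (female) at 800 bp and when peaks at most 500 bp apart were joined, and to 10.1% and 8.67% with runs of 2, an alternative chosen after seeing the data. The male share of CAST sex-only regions moved to 61.5% (near male-called) and 50.1% (near female-called) when all lists were shortened to the shortest, where the share among all such regions was 53.8%, and to 73.4% (near male-called) at 800 bp. The share of shared B6 regions wider in males moved to 59.9% (near male-called) when such peaks were joined and to 48.3% (near female-called) at 800 bp, below 50% where the main value was above it. Both shares were higher near male-called than near female-called members in 10 of 10 alternatives, by 6.71 to 17.6 points for CAST sex-only regions and by 1.46 to 9.28 points for shared B6 regions. The causes of these moves were not tested beyond what each alternative itself changes. No paired analysis was possible because each list pools the 5 livers of its group. Pooling also means that no value shows the spread between animals, and that a missing call cannot be told apart from a signal just under the peak caller's limit.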
